A study of Mus musculus with 16 samples.

Results

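The 7 genes described here encode proteins through which gut hormones, glucagon and dietary lipids act on the pancreatic β cell, followed across young and old mouse β cells. They are the receptor genes Glp1r, Gipr, Gcgr, Gpr119 and Ffar1 and the adenylyl cyclase genes Adcy5 and Adcy8. They were chosen by name, and all 7 had 1 entry each among the 22869 genes of the RNA table. The study compared β cells sorted by flow cytometry from isolated islets of young mice (4 to 6 weeks) and old mice. RNA came from MIP-GFP/Bl6 mice of both ages, in which the insulin promoter drives green fluorescent protein, with 3 old libraries (15, 16 and 17 months) and 2 young ones. Chromatin and bisulfite libraries came from mice labelled C57Bl6, old ones 16 to 18 months, with 1 library per assay and age. For the old bisulfite pool, the label and the design text differ in age. Each library was a pool of mice, the labels name no other allele or treatment in any group, and H3K27ac was held for young cells only.

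The GLP-1 and GIP receptors (Glp1r, Gipr) and the glucagon receptor (Gcgr) are class B G-protein-coupled receptors that couple to Gs, raise cyclic AMP and strengthen glucose-stimulated insulin secretion. GPR119 binds lipid amides and also couples to Gs, whereas FFAR1 (GPR40) binds long-chain fatty acids and acts mainly through Gq, phospholipase C and calcium. Adenylyl cyclases make the cyclic AMP; ADCY8 is stimulated by calcium and calmodulin, ADCY5 is inhibited by calcium, and both have been linked to glucose-stimulated insulin secretion. Trimethylation of histone H3 lysine 27 (H3K27me3) marks Polycomb-repressed chromatin, acetylation of the same residue (H3K27ac) marks active promoters and enhancers, and H3K4me1 marks enhancers more broadly.

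The promoter sequences below are shown because they lie within the promoters whose methylation is described later, that of Adcy5 in part, and because they differ widely in CpG content. Each runs from 250 bases before to 50 bases after the RefSeq gene start, 5′ to 3′ on the gene's strand, taken from RefSeq on GRCm38.p6, with every CpG in capitals. Such a sequence was held for 5 of the 7 genes, not for Gipr and Adcy8. The spacing of the CpGs placed every one of them in the deposited CpG tables, which use the build mm9, without converting coordinates.
Ffar1 (chr7:30861421-30861720, minus strand): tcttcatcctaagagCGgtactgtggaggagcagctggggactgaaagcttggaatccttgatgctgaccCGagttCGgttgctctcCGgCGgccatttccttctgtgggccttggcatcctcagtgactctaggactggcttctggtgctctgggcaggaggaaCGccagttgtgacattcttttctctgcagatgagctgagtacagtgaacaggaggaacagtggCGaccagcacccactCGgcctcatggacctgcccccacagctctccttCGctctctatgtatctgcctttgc
Gpr119 (chrX:48674429-48674728, minus strand): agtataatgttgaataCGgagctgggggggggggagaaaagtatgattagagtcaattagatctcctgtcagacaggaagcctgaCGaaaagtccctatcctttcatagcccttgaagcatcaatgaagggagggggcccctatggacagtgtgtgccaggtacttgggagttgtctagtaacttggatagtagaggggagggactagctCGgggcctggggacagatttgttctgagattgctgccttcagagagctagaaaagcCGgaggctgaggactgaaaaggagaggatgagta
Glp1r (chr17:30901617-30901916, plus strand): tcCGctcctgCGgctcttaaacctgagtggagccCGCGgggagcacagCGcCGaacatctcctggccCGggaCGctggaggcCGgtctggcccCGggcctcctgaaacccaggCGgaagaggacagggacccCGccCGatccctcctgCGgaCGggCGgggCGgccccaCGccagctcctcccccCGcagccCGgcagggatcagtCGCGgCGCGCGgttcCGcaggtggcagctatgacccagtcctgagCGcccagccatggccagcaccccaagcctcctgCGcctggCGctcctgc
Adcy5 (chr16:35154614-35154913, plus strand): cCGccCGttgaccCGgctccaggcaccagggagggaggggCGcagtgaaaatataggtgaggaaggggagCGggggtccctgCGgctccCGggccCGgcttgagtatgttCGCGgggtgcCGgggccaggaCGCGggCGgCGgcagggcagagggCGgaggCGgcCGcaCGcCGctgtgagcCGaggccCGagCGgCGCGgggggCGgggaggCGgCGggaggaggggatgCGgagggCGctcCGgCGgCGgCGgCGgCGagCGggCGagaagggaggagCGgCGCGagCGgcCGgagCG
The lipid receptor promoters held 9 CpGs (Ffar1) and 4 CpGs (Gpr119), against a median of 7 over 27025 promoters of the same length. Glp1r held 29 and Adcy5 44, and 88.5% and 98.1% of those promoters held as many or fewer. The RefSeq start of Adcy5 lies at -772 bases from the start in the mm9 table, so its sequence sits at the upstream edge of the promoter window used for methylation. The first CpGs of the Adcy5 sequence fall outside that window. Among motifs searched on both strands, the cAMP response element TGACGTCA occurred in none of the 5 sequences held and in 1.88% of all promoters. Its core TGACG occurred once, in Gpr119, and in 21.0% of all promoters. The GC box GGGCGG occurred 3 times in Glp1r, 2 times in Gcgr and 4 times in Adcy5, and in 35.9% of all promoters.

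The libraries held 23559908 to 33562822 gene counts in old cells, 6377619 in the shallower young library and 12892123 in the deeper one. The young columns carry no replicate number and are therefore named by depth. Their labels also differ in an ending whose meaning is not given, so they may differ in more than depth. All 20 β-cell markers were measured, with a summed level of 346671 to 407852 CPM (gene counts scaled to a common library total) in old and 286432 and 349584 CPM in young libraries, and 3 of them rose in old cells (Iapp, Slc2a2, Slc30a8). Markers of other cells were higher in young libraries. The summed level of 15 stromal markers was 22.8 to 38.7 CPM in old, 681 CPM in the shallower young and 5904 CPM in the deeper young library, and 14 of 15 fell. Of 15 endothelial markers 14 fell (66.3 to 107 CPM summed in old, 694 and 1423 CPM in young), as did 17 of 23 tested acinar markers (209 to 254 CPM in old, 2379 and 2981 CPM in young), 8 of 10 delta and PP cell markers (240 to 438 CPM in old, 3450 and 10533 CPM in young) and 4 of 13 alpha cell markers (1533 to 2386 CPM in old, 2560 and 34761 CPM in young). Of duct markers 5 of 13 fell, of immune markers 4 of 14 and of adipocyte and liver markers 2 of 4, and none rose. Markers with 0 counts in all old libraries included Pou3f4, Amy2a5, Ctrc, Ptf1a, Adipoq and Plin1, all with counts in young libraries. In these bulk samples, fewer cells of a type and less RNA per cell cannot be told apart.

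None of the 7 genes passed the test between ages (edgeR's quasi-likelihood test over 15544 genes, Benjamini-Hochberg adjusted p under 0.05), beside 11.1% of all genes tested (3.17% higher and 7.93% lower in old). The lowest edgeR adjusted p of the 7 were those of Gcgr (0.111), Adcy8 (0.113) and Adcy5 (0.130). DESeq2 called the same 3 lower in old, where it called 22.9% of all genes in either direction. Both cyclase genes were low throughout and lower in every old library than in either young one. All 5 receptor genes had overlapping ages in CPM, with at least 1 old library between the young ones. For Glp1r the overlap depended on the scaling, as given below. The p-values measure the spread between these pooled samples.

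Glp1r (chr17:31038812-31073455, plus strand, mm9) was by far the most abundant of the receptors. Its level was 1140, 905 and 1168 CPM in the old libraries of 15, 16 and 17 months, and 939 and 396 CPM in the shallower and deeper young library. In CPM the shallower young library lay within the old range and the deeper one below it, so the groups overlapped. With CPM scaled by the TMM factors of the edgeR test they did not. The old libraries were then at 1141, 919 and 1308 and the young ones at 887 and 369. The share of all genes without overlap on that scale was not counted. The log2 change was 0.84 (SE 0.37, edgeR adjusted p = 0.176). With 1 library left out the log2 change ranged from 0.35 to 1.61. The value of 1.61 was that without the shallower young library, a fit that rests on 1 young library.

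Gipr (chr7:19742474-19751476, minus strand), the receptor of the other incretin, was at 46.6, 46.1 and 80.6 CPM in old and 15.1 and 66.1 CPM in young cells. The young libraries enclosed the first 2 old ones. Its log2 change was 0.69 (SE 0.60, edgeR adjusted p = 0.485), with 2.12 (adjusted p = 0.0111) without the deeper young library and no change (-0.0022, adjusted p = 0.998) without the shallower one.

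Gcgr (chr11:120392041-120400298, plus strand) was at 8.81, 11.4 and 7.81 CPM in old cells. In young cells it was at 85.0 CPM (shallower library) and 8.22 CPM (deeper library), far apart. The deeper young library lay within the old range in CPM. With TMM scaling it lay below it, at 7.65 against 8.74 to 11.6. On either scale the low old level was not a difference from both young pools. The log2 change was -2.17 (SE 0.79, edgeR adjusted p = 0.111), -3.03 (adjusted p = 0.000319) without the deeper young library and 0.35 (adjusted p = 0.677) without the shallower. Glucagon RNA (Gcg), the ligand gene of alpha cells, ran the other way in the young pools, at 1766 CPM (shallower) and 32655 CPM (deeper); whether the 2 are related was not tested.

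Gpr119 (chrX:46021156-46027655, minus strand) was at 48.8, 49.2 and 22.5 CPM in old and 7.21 and 33.9 CPM in young cells. The third old library lay between the young ones. The log2 change was 1.10 (SE 0.64, edgeR adjusted p = 0.291), 2.61 (adjusted p = 0.00653) without the deeper young library and 0.40 (adjusted p = 0.533) without the shallower one. The RNA pools also differed in sex-linked genes: Xist was at 2.46 to 3.16 CPM in old libraries and at 318 and 631 CPM in young ones. Y-linked Eif2s3y, Kdm5d and Uty were lower in both young libraries than in any old one, and Ddx3y only in the deeper one. Each was detected in every library. The part of sex in the values of this X-linked gene was not tested.

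Ffar1 (chr7:31645587-31646489, minus strand), the fatty acid receptor, was at 18.9, 12.8 and 26.8 CPM in old and 26.8 and 16.7 CPM in young cells. Both ages covered the same range. The log2 change was 0.02 (SE 0.50, edgeR adjusted p = 0.988), and it was negative with RLE in place of TMM factors (-0.12), so no direction is given.

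Adcy5 (chr16:35155722-35304635, plus strand) was at 1.46, 1.70 and 0.127 CPM in old cells and 5.80 and 12.3 CPM in young ones. All 3 old libraries lay below both young ones. The log2 change was -2.92 (SE 1.14, edgeR adjusted p = 0.130), and the DESeq2 adjusted p was 0.0441.

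Adcy8 (chr15:64530597-64753858, minus strand) was at 0, 0.0894 and 0.424 CPM in old cells (13 counts in all) and 9.56 and 1.40 CPM in young ones (79 counts). Its old libraries too lay below both young ones. The log2 change was -4.76 (SE 1.75, edgeR adjusted p = 0.113), with a DESeq2 adjusted p of 0.0271, and it was -5.58 (adjusted p = 0.0273) without the deeper and -2.77 (adjusted p = 0.449) without the shallower young library. Every old library was below every young one in these 2 of 7 genes and in 28.1% of all genes tested. The marker lists of other cells, above, were also lower in old libraries, and their part in the cyclase values was not tested.

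**Figure D1:**
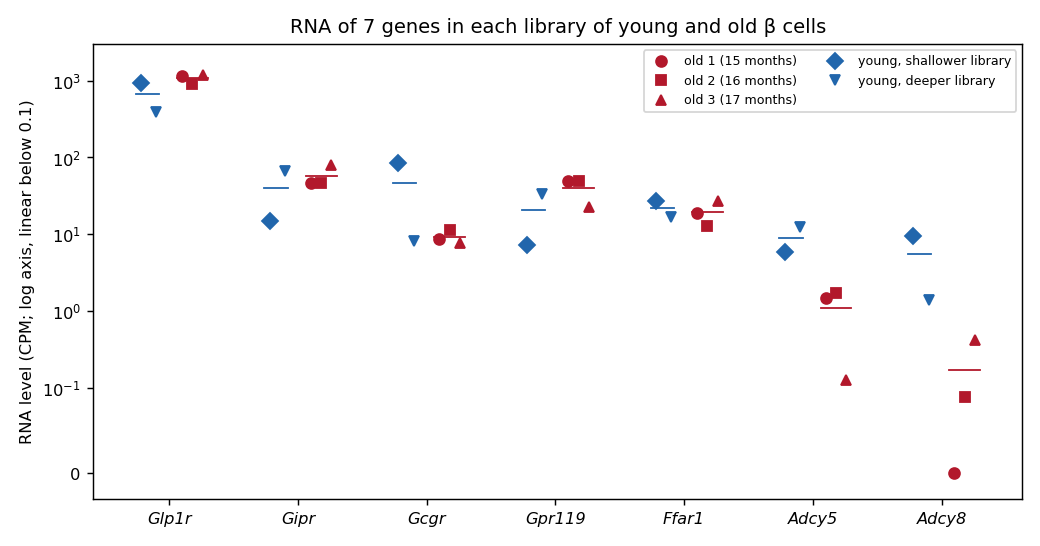
RNA level (CPM, log axis that is linear below 0.1) of the 7 genes in each library; horizontal lines are the means of the 3 old (red) and 2 young (blue) libraries. Only Adcy5 and Adcy8 had all old libraries below both young ones; for Gcgr the shallower young library stood at 85.0 CPM and the deeper one at 8.22 CPM, among the old ones.

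**Figure D2:**
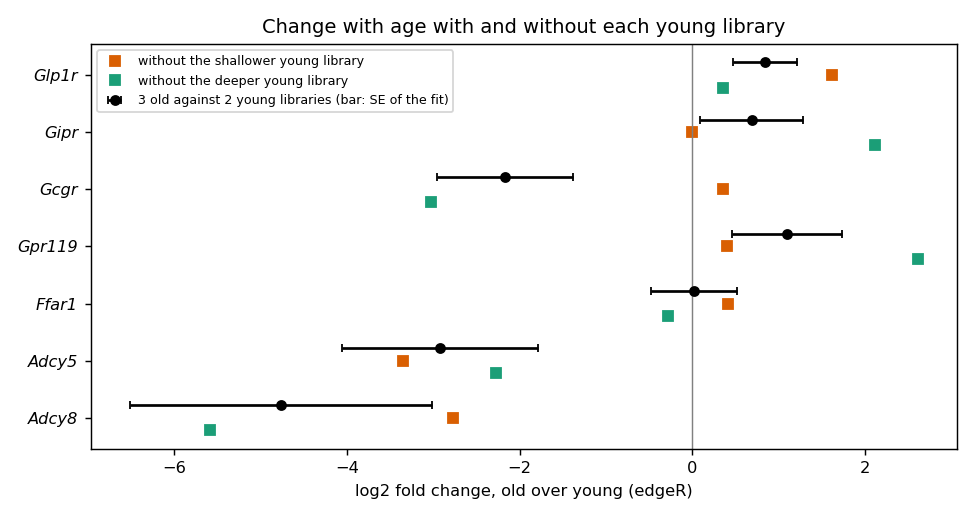
log2 fold change, old over young, from edgeR for each gene with all 5 libraries (black, bar is the SE) and without either young library (squares). Gcgr moved from -2.17 to 0.35 or -3.03, and Gipr and Ffar1 also changed sign. Gpr119 moved from 1.10 to 0.40 or 2.61 and stayed above 0, as did Glp1r, and Adcy5 and Adcy8 remained below 0.

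Per kilobase of transcript, Glp1r led in all 5 libraries, at 723 CPM per kb in old (mean of 3, SD 97.5) and 451 CPM per kb in young (mean of 2, SD 259), above 99.92% and 99.85% of 16505 genes. Transcript lengths were derived from the ratio of the deposited counts to the deposited per-length values. Gipr (32.3 ± 11.0 in old and 22.7 ± 20.2 CPM per kb in young), Ffar1 (21.5 ± 7.72 and 23.9 ± 7.88) and Gpr119 (17.7 ± 6.75 and 9.05 ± 8.31) followed in old cells (SD, n = 3 old and 2 young). Neighbours in this order differed by less than the larger of their SDs in old cells, whereas Gipr and Gpr119 differed by more. Gcgr was at 4.82 ± 0.967 in old and 24.0 ± 28.0 CPM per kb in young cells. Both cyclases took the last 2 places in every library, Adcy5 at 0.216 and Adcy8 at 0.034 CPM per kb in old cells and at 1.79 and 1.09 in young ones. Adcy6 and Adcy9, which also make cyclic AMP, were more abundant: Adcy6 was at 51.5 to 60.4 CPM in old and 36.1 and 65.0 CPM in young, and Adcy9 at 42.0 to 81.0 and 33.0 and 54.6 CPM, and neither passed the test (adjusted p = 0.609 and 0.291).

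Downstream and around the receptors, 29 of 150 tested genes of 6 pathway lists passed the test, 3 higher and 26 lower in old, against 11.1% of all genes. With one old library left out there were 6, 10 and 4 (without the library of 15, 16 and 17 months), and without the shallower or deeper young library 44 and 45. The share of pathway genes called was 4.14, 6.85, 2.70, 29.1 and 29.6% in these fits, in that order, beside 2.17, 2.97, 1.45, 20.2 and 32.1% of all genes, so the share was above that of all genes in 4 of the 5 and below it without the deeper young library. Markers of other cell types were lower in old too, as above, and Sst, Ppy, Pyy and Gcg belong to both sets. The part of such markers in these counts was not tested. The 3 genes higher in old (Atf1, Pde3b and Gnaq) all lost their call when any 1 old library was left out. In each of those fits 0 pathway genes were called higher. With RLE factors, or with a filter at 5 CPM in 2 libraries, 1 pathway gene was called higher.

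The counts of each list below are to be read against 3.17% of all genes higher and 7.93% lower in old, and every list's count moved when 1 library was left out (from 0 to 10 calls on the Gq, Gi and calcium arm and from 0 to 9 among the other islet receptors, for example).

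Among 40 cyclic AMP effectors, 1 rose and 4 fell (median log2 change 0.11, all genes -0.05). The kinase gene Sik1, a known CREB target, was at 2.12 to 3.71 CPM in old and 37.8 and 43.0 CPM in young cells (log2 change -3.58, adjusted p = 0.00672). The coactivator gene Crebbp fell (log2 change -1.01, SE 0.25, adjusted p = 0.0395), while Atf1, of the CREB family, rose by 1.89 (SE 0.46, adjusted p = 0.0394). Adcy4 and Rapgef3, low in old cells (0.378 and 0.747 CPM), were the other 2. Gnas (log2 change -0.47, adjusted p = 0.203), Prkaca (0.08, 0.878), Rapgef4 (0.56, 0.289) and Creb1 (1.74, 0.0792), which encode Gs α, protein kinase A, EPAC2 and CREB, did not pass the test. Of 27 tested genes for phosphodiesterases and receptor desensitisation, 1 rose and 4 fell. Pde3b, which degrades cyclic AMP, rose (104 to 148 CPM in old, 61.4 and 73.7 CPM in young; log2 change 1.003, adjusted p = 0.0459), and Pde2a, Rgs16, Arrb1 and Pde3a fell; Pde4b did not pass (log2 change -0.49, adjusted p = 0.357).

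On the Gq, Gi and calcium arm, through which FFAR1 mainly acts, 1 of 29 rose and 5 fell. Gnaq, the Gq α gene, rose (108 to 145 CPM in old, 65.7 and 78.3 CPM in young, log2 change 0.95, edgeR adjusted p = 0.0450). This call was lost without the shallower young library and without any 1 of the old ones. Gnai1 (log2 change -1.38), Itpr3 (-1.64), Plcd1 and Plcd3 fell, as did Itpr2, which the naming rule did not pick. Plcd3 had 0 counts in all old libraries and 180 in the young ones. Of 11 tested other class B receptors and accessory proteins, 3 fell: Adcyap1r1 (the PACAP receptor), Sctr (secretin receptor) and Calcrl. Of 34 other islet receptors 4 fell, Avpr1b, Gprc5b, Ptger3 and Adora1, and none rose; O3far1 (Ffar4), another fatty acid receptor, did not pass (log2 change -3.15, adjusted p = 0.239). Of 9 tested ligand and processing genes 6 fell: Sst, Ppy, Pyy, Vip, Gcg and Adcyap1 (the last chosen after its values were seen). Gcg did not pass once the deeper young library was left out (log2 change -0.44, adjusted p = 0.412).

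By the root mean square distance between log2 profiles over the 5 libraries, centred per gene, the nearest of 150 pathway genes to Glp1r was Gpr39 (0.226, median distance 0.932). Plcb4 lay nearest to Gipr (0.230), Ghrl to Gcgr (0.387), Creb1 to Gpr119 (0.353) and Adrbk1 to Ffar1 (0.245). Each pair shares its libraries and depth, so the distances are descriptions.

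Of the 7 promoters, those of the lipid receptors Ffar1 and Gpr119 were less methylated in the old library by the call rule. The promoter was taken from 1000 bases before to 500 after the mm9 start, on CpGs with at least 5 reads in both ages; 2 of 7 promoters were called (Fisher's exact test on pooled calls, adjusted over all gene starts, with at least 10 percentage points), both lower in the old library, where 5.09% of all promoters were called lower and 4.09% higher (9.18% in all). With 1 library per age the test compares those libraries, not the ages, and neighbouring CpGs on the same molecules are not independent calls, so the p-values are too small.

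At the Ffar1 promoter, 34.9% of 959 calls were methylated in the young library (95% Wilson interval 32.0 to 38.0%) and 18.8% of 828 in the old one (16.3 to 21.6%), over 31 CpGs (adjusted p = 2.3e-13). Of these CpGs 23 were lower in old and 8 higher. The 9 CpGs of the Ffar1 sequence printed above went from 30.2% to 14.9%. At Gpr119, 28.4% of 74 calls were methylated in young (19.4 to 39.5%) and 5.49% of 91 in old (2.37 to 12.2%), over 6 CpGs (adjusted p = 0.000224). Of the 6 CpGs 4 were lower in old and 2 equal. The 4 CpGs of the Gpr119 sequence printed above did not share this direction: over all their reads they held 12.5% of 32 calls in young and 15.8% of 38 in old. Of these 4, 2 had too few reads to enter the promoter value and were at 0% in young and 100% in old (4 and 2 old reads), so the lower value rests mostly on CpGs past the printed sequence. Gpr119 is X-linked; of chromosome X promoters 7.38% were called lower and 9.51% higher. Chromosome X held 0.333 of the autosomal reads per CpG in young and 0.389 in old, and CpGs of chromosome Y had reads in both ages. Whether the bisulfite pools differed in sex, and the part of this in the Gpr119 value, was not tested.

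The other 5 promoters were not called; the median promoter was at 11.0% in young and 10.5% in old. Glp1r had 4.51% in young and 2.41% in old (54 CpGs), and Adcy5 4.25% and 5.62% (173 CpGs, the fullest promoter of the 7). Gipr had 13.97% and 9.94%, Gcgr 14.7% and 15.2%, and Adcy8 10.4% and 7.01%, none of them a 10-point difference. In the narrower window of the printed sequences (250 bases before to 50 after the start) Gipr was called lower (-10.7 points), and Gpr119 had too few CpGs to test. At Gcgr, the CpGs from -940 to -391 bases were at 52.2 to 100% in young and 51.6 to 100% in old, and the average joins them to a weakly methylated start. The Adcy8 average hid opposite local differences, described with its H3K4me1 peaks.

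**Figure D3:**
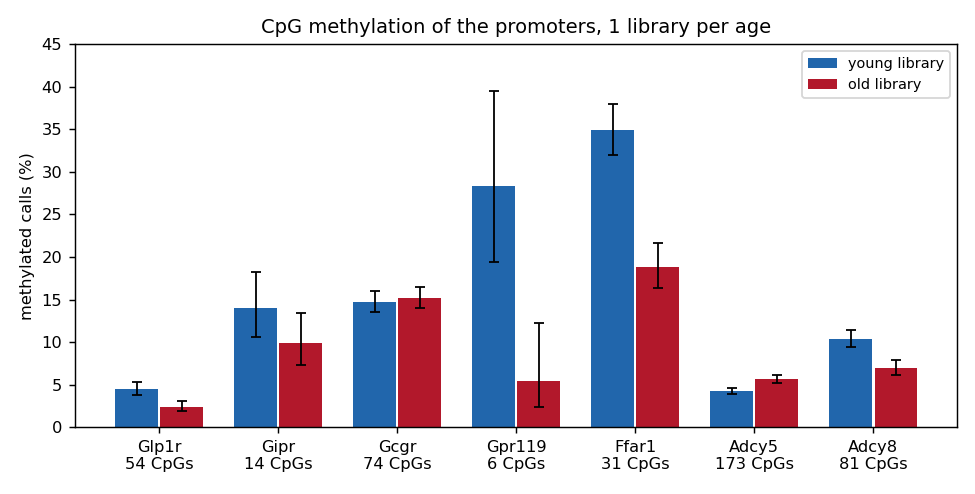
Share of methylated calls in the promoter of each gene, young (blue) and old (red) bisulfite library, with the 95% Wilson interval as error bar, which covers counting error only. The young and old intervals do not overlap for Ffar1 (34.9% and 18.8%), Gpr119 (28.4% and 5.49%), Glp1r, Adcy5 and Adcy8, and they overlap for Gipr and Gcgr. Only the Ffar1 and Gpr119 pairs differ by at least 10 points.

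**Figure D4:**
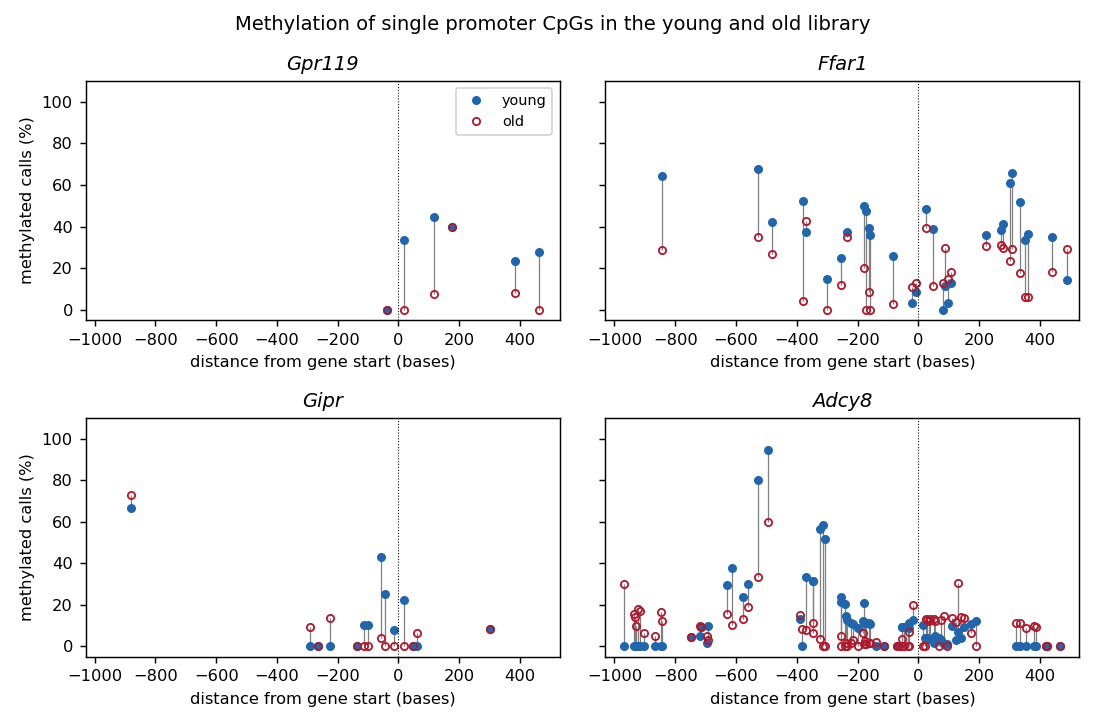
Methylation (%) of each promoter CpG with at least 5 reads in both ages against its distance from the gene start, young filled and old open, for Gpr119, Ffar1, Gipr and Adcy8. At Adcy8 most CpGs between -158 and -628 bases are lower in old, those from -842 bases outward are at 0% in young and higher in old, and many past the start are higher in old.

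H3K27ac regions called in young cells covered the gene start of Glp1r, Gipr and Ffar1, as they did for 28.1% of all gene starts. At Gpr119 a region overlapped the promoter but not the start, and Gcgr had 4 regions within 50 kb but none at its start. Adcy5 and Adcy8 had none within 50 kb of the start (61.1% of gene starts had one). Further out, Adcy5 had 1 region within its transcript, 98368 bases past the start (rank 3698 of 15754). Glp1r had 7 regions within 50 kb, and 98.6% of gene starts had 7 or fewer. Over the 20 regions near the 7 genes, 19 were tested and 4 were lower and 1 higher in old, beside 14.3% and 3.45% of all H3K27ac regions. Other genes share these windows, the nearest at 3904 bases from Gcgr (Fam195b), 4399 from Gipr (Snrpd2), 3934 from Ffar1 (Cd22) and 5685 from Gpr119 (Slc25a14). Which gene a peak of any list belongs to was not tested.

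The Ffar1 region spans chr7:31645160-31648956 and contains the promoter: its 69 CpGs went from 30.6% to 15.6% (adjusted p = 2.2e-29). The Gpr119 region, chrX:46026988-46027488, went from 55.0% to 12.0% over 7 CpGs (adjusted p = 1.8e-10; of chromosome X regions 12.0% were lower and 5.24% higher). It overlaps the 6 promoter CpGs in part, so the promoter and region values share calls. Within the Glp1r transcript, a region centred 10194 bases past the start went from 81.0% to 65.1% over 23 CpGs (adjusted p = 1.3e-07), and 1 upstream at -24440 bases from 22.3% to 11.0% over 9 CpGs (adjusted p = 0.00827). Glp1r's own start region held 4.59% in young and 2.20% in old and was not called. The 1 region higher in old lay at 41513 bases past the Ffar1 start, at 30.2% in young and 42.7% in old.

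All 7 genes had an H3K4me1 peak within 50 kb in both lists (86.3% of gene starts in the young and 76.4% in the old list), and no start lay inside one (1.87% and 0.8%). They were frequent near Gcgr, in a window that other genes share, with 10 in the young and 12 in the old list within 50 kb. In the old list 99.6% of gene starts had 12 or fewer. A pair of sites there was lower in old whichever list set its limits: at -46533 bases, 4 CpGs went from 71.2% to 16.7% with the young peak's limits, and at 19563 bases 3 CpGs from 31.4% to 15.4%. A Gipr peak at -13415 bases went from 23.4% to 7.75% (7 CpGs). In all, 18 young-list peaks near the 7 genes were tested and 4 were lower and 2 higher (background 17.1% and 9.65%), and of 15 old-list peaks 3 were lower and 1 higher (16.6% and 10.2%). These counts are small and close to the background. The higher peak of the old list lay at 21195 bases past the Ffar1 start, 62.6% in young and 79.3% in old.

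Adcy8 showed local differences in both directions around its start. A young H3K4me1 peak at -318 bases went from 41.3% to 3.48% over 7 CpGs (adjusted p = 5.9e-26). The flanking peaks at -869 and 939 bases were unmethylated in young and reached 12.3% and 12.1% in old (adjusted p = 2.7e-10 and 3.6e-15). An old-list peak at -565 bases went from 39.3% to 16.9%, a call lost at a coverage of 10 (-17.1 points, adjusted p = 0.0787).

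An H3K27me3 region lay within 50 kb of 6 of 7 gene starts in young cells (69.6% of all) and of 7 in old cells (80.4%). It lay over the start of both cyclase genes in both ages, as over 25.4% of gene starts in young and 39.3% in old. At Adcy8 the regions were chr15:64746001-64762000 in young (rank 295 of 31187 by deposited score) and chr15:64746001-64759000 in old (rank 911 of 38007). At Adcy5 the young region was chr16:35117001-35174000 (rank 2084), and the old one, chr16:35149001-35300000 (rank 1309), reached over most of the transcript. Ranks from lists of different length show no change. In the old list only, regions also covered the starts of Glp1r (rank 30875), Gcgr (rank 2440) and Gpr119 (rank 8545), while Gipr and Ffar1 had none over the start in either age. The old list covers 649 Mb in all and the young one 452 Mb. A difference in the mark between the ages was not tested.

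**Figure D5:**
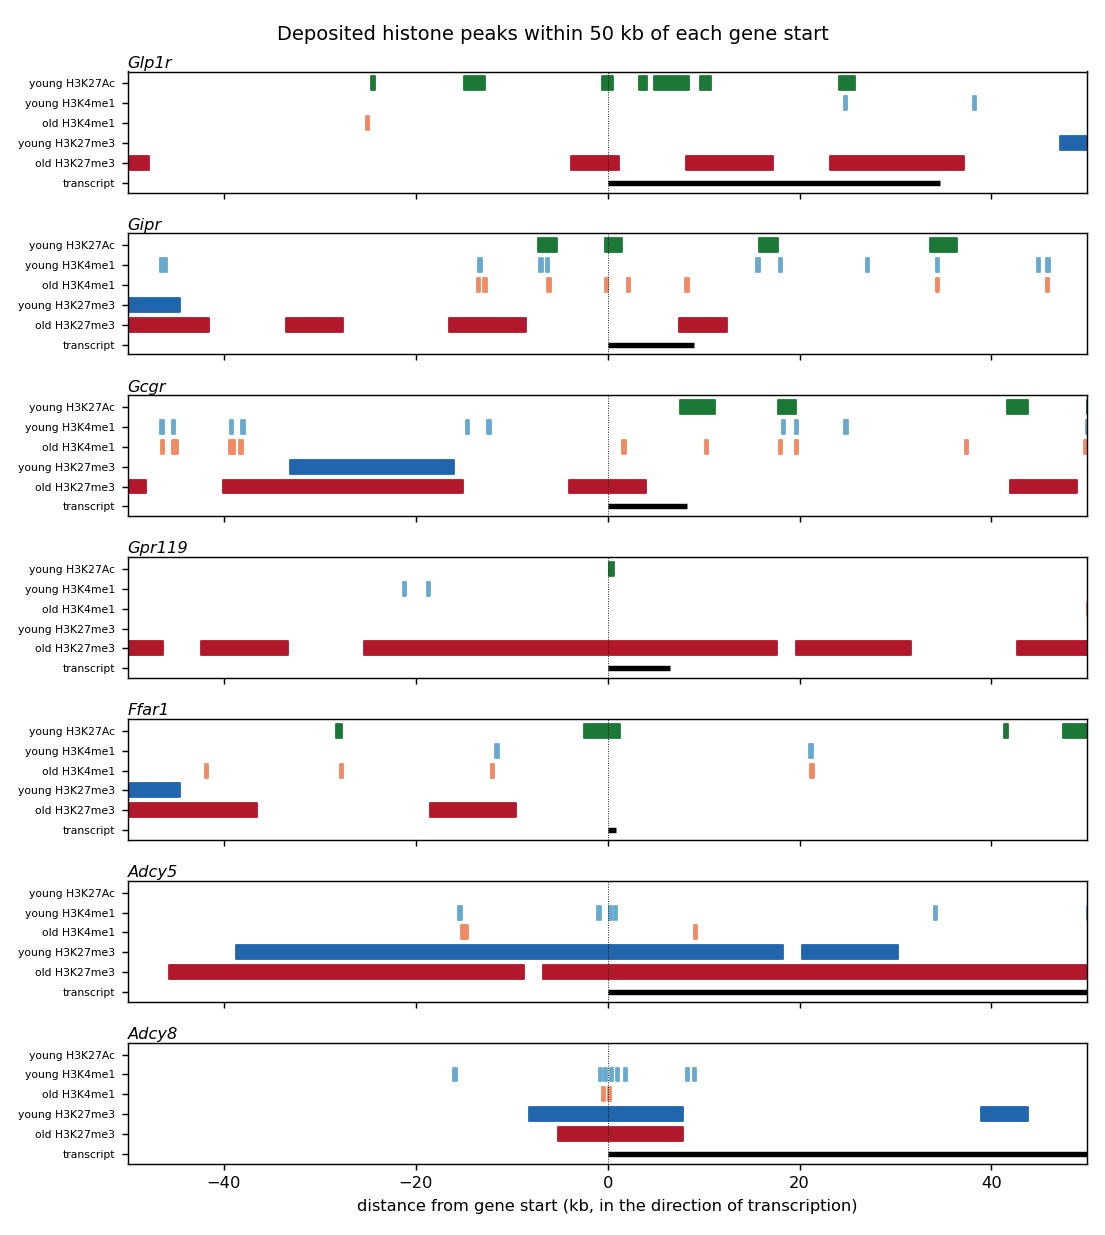
Deposited peaks of 5 lists within 50 kb of each gene start, by distance in the direction of transcription, with the transcript as a black bar. H3K27ac (green) lies near the receptor genes and is not listed within 50 kb of the Adcy5 and Adcy8 starts, where H3K27me3 covers the start in both ages. A region further along the Adcy5 transcript falls outside the plot.

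Over the 50 kb to either side of the start, pooled methylation differed by -0.41 points (Glp1r), 1.71 (Gipr), 7.95 (Gcgr), 6.40 (Gpr119), 0.95 (Ffar1), 7.01 (Adcy5) and 4.46 (Adcy8), old minus young, against a median of 2.57 over 22494 windows. Pooling weights CpGs by coverage, and the mean over CpGs gave -0.44, -0.69, -0.82, 1.51, -0.012, 0.31 and -0.34 points in the same order, with a median of -0.43. The sign therefore depended on the weighting for Gipr, Gcgr, Ffar1 and Adcy8. Gpr119 and Adcy5 were positive by both measures, above 88.2% and 93.4% of windows (Gpr119) and 91.8% and 73.8% (Adcy5).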

How the data were processed

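RNA, 3 histone marks and CpG methylation were measured in sorted β cells of young and old mice. Deposited RNA values are whole-number counts of reads for each RefSeq transcript. A second deposited table holds FPKM values, but its column for old library 3 equals 1 young column in 100% of entries; only positions and transcript lengths were taken from it. The deposited CpG tables give the methylated fraction and the read coverage per CpG (19569012 CpGs, median 18 reads in old; 18795223, median 16 in young). HOMER called the H3K4me1 and H3K27ac peaks against an input library, per the file headers, with a score and a fold over input per peak; the deposited score served only for ranks, and no header names the caller of the H3K27me3 lists. Bowtie 0.12.7, CASAVA 1.8.2, STAR, HOMER, edgeR and the build mm9 are listed in the submitters' processing notes, with no step for each. Whether counting used strand is not given; none of the 7 genes overlaps another.

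From these, age was tested on counts with edgeR 4.0.16 in R 4.3.3 (TMM factors, filterByExpr, two-sided), with DESeq2 1.42.0 as an alternative. The transcript with the highest total stood for each gene. Methylated calls were fraction times coverage, which gave whole numbers within 1.9e-08. Regions needed 3 CpGs with at least 5 reads in both ages and were tested by Fisher's exact test (scipy 1.17.1). Scripts were tested on simulated data. Genes named were the 7, up to 4 called genes per list and direction and a fixed set of 10; peaks named were those over promoters, the best-ranked and up to 3 called per gene. The genes and lists were chosen with earlier results of these data known. Input libraries were not analysed here.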

Additional observations from a re-analysis of the deposited data

How the results depend on the processing

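No paired analysis was possible because the young RNA columns carry no replicate number and each other assay had 1 library per age. The edgeR count of 1724 called genes (492 higher in old) was 219 to 441 without 1 old library (37 to 50 higher), 3243 (1296) without the shallower young library, 5467 (2368) without the deeper one, 3562 (1114) with DESeq2, and 823 higher with no filter. Without the shallower young library the log2 changes were 1.61 (Glp1r), -0.0022 (Gipr), 0.35 (Gcgr) and -0.054 (Adcy6); without the deeper one 2.12 (Gipr), -3.03 (Gcgr), 2.61 (Gpr119), -0.29 (Ffar1), -5.58 (Adcy8), -0.26 (Prkaca) and 0.41 (O3far1). Without 1 old library Ffar1 ranged from -0.37 to 0.23. DESeq2 gave -2.33 (Gcgr), -3.04 (Adcy5), -4.95 (Adcy8), -0.12 (Ffar1) and -0.051 (Prkaca). RLE factors gave -0.12 (Ffar1) and -0.051 (Prkaca), the filter at 5 CPM gave -0.12 (Ffar1) and -0.058 (Prkaca), and no filter made Gcgr a call (-2.06, adjusted p = 0.0494). Adcy8 had too few counts for the 5 CPM filter.

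With a 20-point rule 253 promoters were lower and 211 higher, and with no minimum difference 5608 and 6066. The 20-point rule lost Ffar1 (-16.1 points), and no minimum added Adcy5 (1.38), Adcy8 (-3.37) and Glp1r (-2.10). Over 2000 bases to either side signs turned for Adcy8 (1.29), Gcgr (-1.54) and Gipr (0.43), and over 250 before to 50 after Gcgr was -0.65 and Gipr -10.7, with Gpr119 not testable. Lower and higher peaks under the 20-point rule were 2578 and 1097 (young H3K4me1), 1134 and 498 (old H3K4me1) and 697 and 127 (H3K27ac). With no minimum, higher peaks were 4119 and 1930 for H3K4me1, and H3K27ac had 5340 lower and 2992 higher. Near the 7 genes the 20-point rule left 2 lower young H3K4me1 peaks, 1 lower H3K27ac region and 0 higher peaks in any list; no minimum gave 4, 3 and 3 higher (young H3K4me1, old H3K4me1, H3K27ac) and 9 lower H3K27ac. A coverage of 10 gave 2 higher H3K27ac regions and 1 lower old H3K4me1 peak.

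Peaks near the genes within 20 kb were 23 young and 16 old H3K4me1, 12 H3K27ac, 3 young and 12 old H3K27me3. The better-ranked 50% of a list left 27 young H3K4me1, 10 H3K27ac and 5 young H3K27me3, and adding the transcript gave 17 young H3K27me3. Overlap of at least 50% of the shorter peak left 4 H3K4me1 peaks shared in either list. The 50 kb differences for Gpr119 were 2.77 at a coverage of 10 and 3.33 with the transcript, those with the transcript 4.80 (Adcy5) and 3.21 (Adcy8), and per-CpG means, an alternative chosen after seeing the data, gave -0.69 (Gipr), -0.82 (Gcgr), 1.51 (Gpr119), -0.012 (Ffar1), 0.31 (Adcy5) and -0.34 (Adcy8). The cause of these shifts was not tested. Depth limits Adcy8 (13 counts in old), Gpr119 (6 promoter CpGs) and the Gcgr H3K4me1 sites (3 and 4 CpGs).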
